A study of Mus musculus with 20 samples.

Results

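The kinesin motor and light chain genes were taken as the 46 genes whose symbols begin with Kif or Klc followed by a number or, for the C-terminal motors, the letter c, out of 22556 genes in the stage table. By known role, 20 were set down as transport members (motors and light chains of axonal, dendritic or ciliary transport), 14 as mitotic, 11 as having other roles, and Kif4b, a near copy of Kif4, stood in none of these lists. All 46 were also present in each of both knockout tables.

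Kinesins are motors that walk along microtubules. A conventional kinesin-1 motor pairs heavy chains, which hold the motor domain, with light chains, which help to bind cargo, and it carries vesicles and organelles from the cell body into the axon. Other kinesins carry synaptic vesicle precursors or ciliary cargo, shorten microtubules, or move chromosomes in dividing cells.

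The messenger RNA came from serotonin (5-HT) neurons of C57BL/6 mice, sorted by flow cytometry for the yellow fluorescent protein EYFP, and the series held 20 samples in 8 groups. Wild-type libraries made with the Clontech SMARTer kit were taken from embryos at days E11.5 and E15.5 of gestation and, as PN, from pups of postnatal day 1 to 3. Pet-1-/- and wild-type libraries of E15.5 embryos were also compared, once with the Clontech and once with the NuGEN Ovation kit. Pet-1, the product of the Fev gene, is an ETS-family transcription factor that in the brain is largely restricted to serotonin neurons. Each RNA group had 3 libraries, and nothing in the labels says that these came from separate animals, or whether animals were pooled, so p-values measure only the spread between libraries, which may be technical. The last samples were 1 chromatin immunoprecipitation of Myc-tagged Pet-1 from hindbrain and 1 input. Their sample labels give wild type at E12.5 to E14.5, whereas the protocol text gives Pet-1-/- embryos with the transgenes ePet-mycPet-1 and ePet-EYFP and ends at E15.5.

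Levels are in FPKM (fragment counts corrected for transcript length and for library size), which can be compared between genes. The read depth is unknown. The columns of the stage table name a stage and no replicate, so the libraries are lettered a to c, and the E15.5 columns were taken as Clontech from the protocol. All 9 serotonin neuron markers were expressed, with sums of 1076 to 1477 (E11.5), 499.5 to 598.7 (E15.5) and 489.6 to 742.8 FPKM (PN). Markers of other cells were present too. Summed over 9 astrocyte markers the level was 60.7 to 141.8 FPKM at E11.5, then 68.8 to 187.6 FPKM at E15.5, and 719 to 4952 FPKM in PN, and over 9 microglia and blood markers it was 3.95 to 8.16, 17.7 to 63.3 and 103.6 to 1035 FPKM in that order of stages. Library b was the highest of the PN libraries in both sums. The E11.5 and PN astrocyte sums were mostly Apoe. Of 7 astrocyte markers tested, 4 were higher and 1 lower at E15.5 than at E11.5 (median log2 change 3.41), the 4 being Slc1a3, Aldh1l1, Sparcl1 and Aldoc and the 1 Apoe, while Gfap stayed below 0.1 FPKM in every embryonic library. Of 3 oligodendrocyte lineage markers tested 2 were higher at E15.5 than at E11.5 and 0 lower. The red cell marker Hbb-b1 was listed at 0 in all 3 E11.5 libraries, and 6 of 8 vascular markers (Cldn5, Pecam1, Cdh5, Flt1, Kdr and Col1a1) were also listed at 0 there. In these bulk samples, fewer cells of a type and less RNA per cell cannot be told apart.

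The transport members supplied nearly all kinesin transcripts. Klc1, a kinesin-1 light chain, led with a mean of 168 FPKM over the 9 libraries, followed by Kif3a (58.6), a motor subunit of heterotrimeric kinesin-2, and Kif1a (46.3), the kinesin-3 motor of synaptic vesicle precursors. Next came the kinesin-1 heavy chain Kif5c (29.7), the light chain Klc4 (24.4) and the heavy chains Kif5a (24.2) and Kif5b (24.1), whose ranges over libraries overlapped throughout. These 7 were the members with a mean of at least 20 FPKM, and all 7 were transport members. Kif1b, Kif2a and Kif21a followed with means of 17.0, 13.8 and 12.2 FPKM. Of the 14 mitotic members only Kif22, a motor that binds chromosome arms, had a mean of at least 1 FPKM (5.57).

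**Figure D1:**
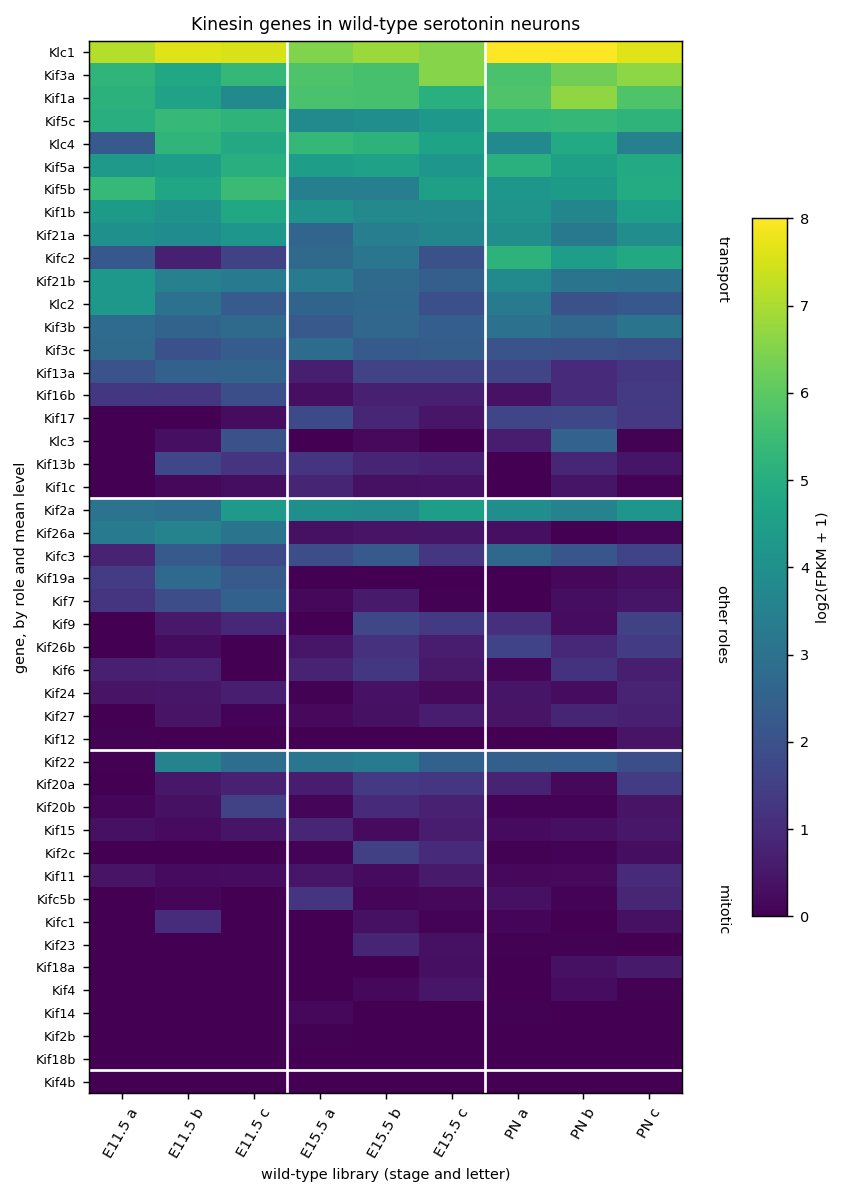
Level of each of the 46 kinesin genes, as log2(FPKM + 1), in the 9 wild-type libraries, with genes in rows by role and by mean level and libraries in columns by stage. The transport genes at the top hold the highest levels, and most mitotic rows at the bottom lie near 0. Klc1 is the brightest row by mean level, though Kif3a lay just above it in E15.5 library c (92.5 against 91.9 FPKM).

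Every gene that reached 1 FPKM in 3 or more of the libraries was tested with limma on log2(FPKM + 1), and a change was called at an adjusted p below 0.05 and at least 1.5-fold. Of the members, 27 were tested, namely 18 of 20 transport, 2 of 14 mitotic and 7 of 11 others. Kif26a, Kif19a and Kif7 passed this filter only through E11.5, where they were high, and Kif17 and Kif26b only through E15.5 and PN. A difference from E11.5 was built into the passing of these 5, so their changes are given with no p. The 19 untested members did not exceed 4.72 FPKM in any library, a level reached by the light chain Klc3.

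From E11.5 to E15.5, 6 members were called lower and 0 higher. They were the kinesin-1 genes Klc1, Kif5c and Kif5b, from the 19 members that reached 1 FPKM in a library of both stages, and Kif26a, Kif19a and Kif7, from the 8 that did not. In the same comparison 6 of 9 serotonin neuron markers were lower and 0 higher (median log2 change -1.43), and 4 of 7 astrocyte markers were higher and 1 lower. The part of either in the kinesin calls was not tested. Of all 11741 genes tested, 28.9% were called either way, 2046 higher and 1348 lower at E15.5. The median log2 change of the 27 members tested was -0.19, against 0.11 for all genes tested, and that of the transport members was -0.40. Libraries of the stages did not overlap for 14 of the 27 members, 11 of them lower at E15.5, where 42.3% of all genes tested did not overlap. By q in the authors' deposited table, calls were made for 12 members, 3 higher (Kif1a, Kif3a and Kifc2) and 9 lower. The 9 were Klc1, Kif5b, Kif5c, Kif26a, Kif13a, Kif16b, Kif21a, Kif21b and Klc2, so 4 of the 6 were among the 12.

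From E15.5 to PN, 3 members rose and 0 fell, and all 3 were transport members, Kifc2, Klc1 and Kif5c. Of all genes tested 20.2% were called, 1249 higher and 1121 lower in PN. The median log2 change was 0.23 over the members tested and 0.46 over the transport members, against 0.01 for all genes tested. Libraries did not overlap for 8 members, 5 of them higher in PN, where 42.2% of all genes did not overlap. By q in the authors' deposited table, calls were made for 6 members, 5 higher (Kifc2, Klc1, Kif5c, Kif1a and Kif5b) and 1 lower (Klc4), the 3 above among them.

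Between the outer stages, PN against E11.5, 5 members were called higher (Kifc2, Kif1a, Kif17, Kif26b and Kif3a) and 3 lower (Kif26a, Kif19a and Kif7). Only Kifc2, Kif1a and Kif3a were among the 19 members that reached 1 FPKM in a library of both stages. Of all genes tested 27.4% were called, 2038 higher and 1177 lower in PN. The median log2 change was 0.07 over the members tested and 0.08 over all genes tested. Libraries did not overlap for 9 members, where 40.3% of all genes did not overlap.

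The later change was set against the earlier one in the same fit, as PN over E15.5 minus E15.5 over E11.5. This difference was called for 5 members, all with the later change above the earlier one (Klc1, Kif5c, Kif5b, Kif26a and Kif19a), and for 22.6% of all genes tested, 1129 in that direction and 1529 in the other. Kif26a and Kif19a were not among the 18 members that reached 1 FPKM in a library of every stage. Without E15.5 library a or b the difference was called for 3 members.

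**Figure D2:**
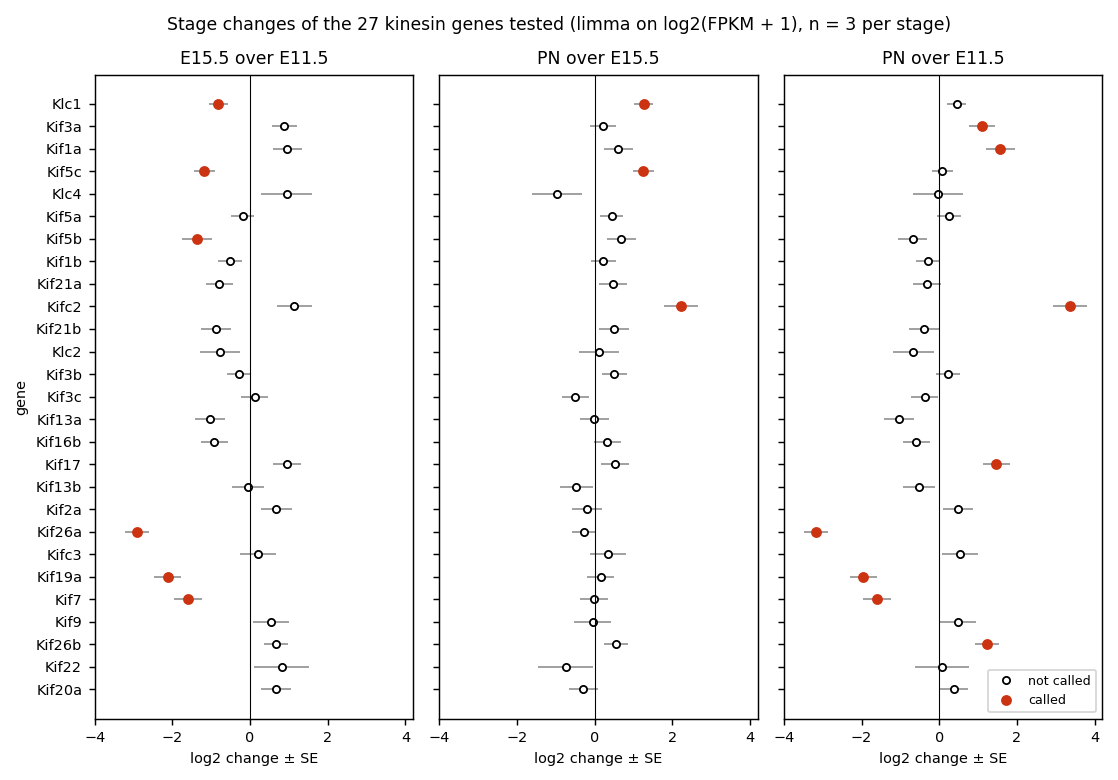
Log2 change of each of the 27 kinesin genes tested, with its standard error, for the 3 stage comparisons (later over earlier, n = 3 libraries per stage). Filled red points passed an adjusted p below 0.05 and 1.5-fold. All 6 filled points of the first panel lie left of 0, all 3 of the second lie right of it, and the third holds 5 on the right and 3 on the left.

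Among the kinesin-1 genes, Klc1 and Kif5c had a low point at E15.5 in the stage libraries. Klc1 stood at 139, 195 and 183 FPKM at E11.5, at 88.4, 111 and 91.9 FPKM at E15.5 and at 256, 253 and 194 FPKM in PN. Every E15.5 library lay below every library of both other stages, and PN library c lay just below the highest E11.5 library. The log2 change was -0.81 from E11.5 to E15.5 (SE 0.24, limma, adjusted p = 0.0249) and 1.26 from E15.5 to PN (SE 0.24, limma, adjusted p = 0.00407). The first of these no longer passed without E11.5 library b or c or E15.5 library a or c (log2 change -0.78 to -0.72, adjusted p = 0.0618 to 0.0805). The neuron-enriched heavy chain Kif5c stood at 31.3, 40.3 and 36.2 FPKM at E11.5, at 13.2, 14.8 and 18.2 FPKM at E15.5 and at 37.8, 39.7 and 36.0 FPKM in PN. Its E15.5 libraries lay apart from all others, and those of E11.5 and PN overlapped. Kif5c changed by -1.18 on the log2 scale from E11.5 to E15.5 (SE 0.26, limma, adjusted p = 0.00601) and by 1.25 from E15.5 to PN (SE 0.26, limma, adjusted p = 0.00649), and by 0.08 over the whole span (adjusted p = 0.858). In the authors' group values for E15.5 wild type, Klc1 stood at 161 FPKM with NuGEN and 81.1 FPKM with Clontech. Kif5c stood at 28.6 FPKM with NuGEN and 16.3 FPKM with Clontech. No other stage has NuGEN libraries, so the low point was not tested with that kit.

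Of the other heavy chains, Kif5b was called in the first interval and Kif5a in no comparison. Kif5b, found in most cell types, stood at 39.9, 25.1 and 43.2 FPKM at E11.5, at 9.92, 9.77 and 22.4 FPKM at E15.5 and at 17.3, 19.5 and 29.4 FPKM in PN. E15.5 library c was the highest of its stage and still lay below all E11.5 libraries, whereas PN overlapped with both. Kif5b fell from E11.5 to E15.5 (log2 change -1.37, SE 0.38, limma, adjusted p = 0.0174), a call that was lost without E15.5 library a or b (log2 change -1.19 and -1.18, adjusted p = 0.0710 and 0.0683), and its change from E15.5 to PN did not pass (0.68, SE 0.38, adjusted p = 0.222). Kif5a, a heavy chain mutated in human hereditary spastic paraplegia, stood at 18.7, 20.8 and 32.4 FPKM at E11.5, at 21.1, 22.7 and 17.4 FPKM at E15.5 and at 32.9, 22.5 and 29.0 FPKM in PN. Its stages overlapped in every comparison, and no change passed the test (log2 change -0.19, 0.44 and 0.25, limma, adjusted p = 0.672, 0.334 and 0.589 for the first interval, the second and the whole span).

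The sum of Kif5a, Kif5b and Kif5c was 89.9, 86.2 and 112 FPKM at E11.5, then 44.2, 47.3 and 58.0 FPKM at E15.5, and 87.9, 81.7 and 94.4 FPKM in PN, with E15.5 below both other stages in every library. Kif5a made up 24.6 ± 4.14% of this sum at E11.5, 41.9 ± 10.3% at E15.5 and 31.9 ± 5.02% in PN (SD, n = 3 each). Kif5b made up 37.4 ± 7.74%, 27.2 ± 9.92% and 24.9 ± 5.84%, and Kif5c 38.0 ± 7.72%, 30.8 ± 0.817% and 43.2 ± 5.25% in the same order of stages. The shares of Kif5a and of Kif5c at E15.5 overlapped with no E11.5 library, and that of Kif5c in PN with no E15.5 library. In exact permutation tests, two-sided, over 9 comparisons of shares, the smallest p that 3 against 3 libraries can give is 0.1, the lowest adjusted p was 0.3, and so none could pass.

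The light chains were dominated by Klc1 at every stage. Its share of the 4 light chains was 84.0 ± 2.44% at E11.5, 72.4 ± 5.45% at E15.5 and 90.8 ± 3.12% in PN, and that of Klc4 was 10.1 ± 6.91%, 24.4 ± 4.88% and 6.55 ± 3.01% (SD, n = 3 each). Klc4, a light chain less studied than Klc1, stood at 3.78, 37.1 and 27.3 FPKM at E11.5, at 39.5, 35.1 and 24.0 FPKM at E15.5 and at 13.2, 29.0 and 10.3 FPKM in PN. E11.5 library a was far below the other libraries of its stage, all stages overlapped, and no change passed (log2 change 0.94, -0.98 and -0.04, limma, adjusted p = 0.297, 0.311 and 0.974). The authors' deposited table calls Klc4 lower from E15.5 to PN (log2 fold change -0.93, q = 0.00765). The ratio of Klc1 to the summed heavy chains was 1.54 to 2.27 at E11.5, 1.59 to 2.34 at E15.5 and 2.06 to 3.10 in PN, and all stages overlapped.

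**Figure D3:**
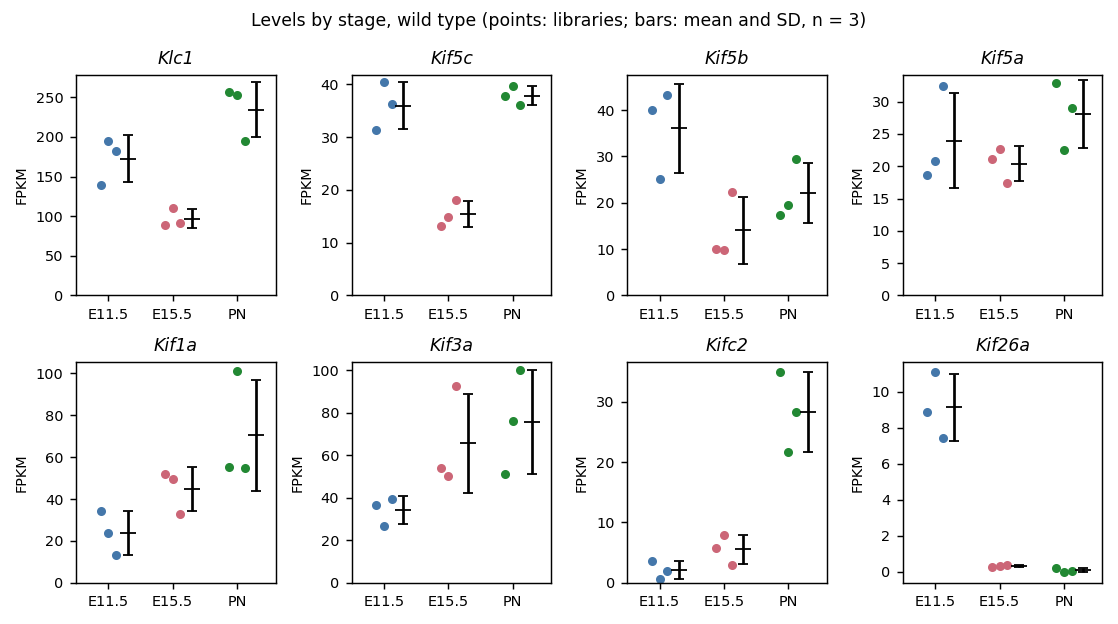
FPKM of 8 kinesin genes in each wild-type library at E11.5, E15.5 and PN, with the mean and SD of the 3 libraries as a bar beside the points. Klc1 and Kif5c dip at E15.5, Kif1a, Kif3a and Kifc2 are highest in PN by mean, and Kif26a lies at 7.42 FPKM or more at E11.5 and at 0.362 FPKM or less later.

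Kif1a and Kif3a had their highest means in PN. Kif1a stood at 34.3, 23.6 and 13.1 FPKM at E11.5, at 51.8, 49.6 and 32.7 FPKM at E15.5 and at 55.2, 101 and 54.8 FPKM in PN. All PN libraries lay above all earlier ones, PN library b was far above the other libraries of its stage, and E15.5 overlapped with E11.5. Kif1a rose over the whole span (log2 change 1.57, SE 0.38, limma, adjusted p = 0.00795). The change to E15.5 did not pass (0.96, adjusted p = 0.0748), though it did without E11.5 library a (1.27, adjusted p = 0.0285), nor did that from E15.5 to PN (0.61, adjusted p = 0.277). The authors' deposited table calls Kif1a higher in both intervals (log2 fold change 0.96 and 0.64, q = 3.88e-04 and 0.00289). Its relative Kif1b, which carries mitochondria and vesicle precursors, had means of 20.5 ± 5.17, 13.8 ± 1.69 and 16.8 ± 5.01 FPKM (SD, n = 3 each). Kif1a thus made up 52.2 ± 16.5% of the Kif1 genes at E11.5, 75.4 ± 4.13% at E15.5 and 79.2 ± 9.15% in PN.

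Kif3a stood at 36.7, 26.6 and 39.4 FPKM at E11.5, at 54.3, 50.3 and 92.5 FPKM at E15.5 and at 51.0, 76.3 and 100 FPKM in PN. Both later stages lay above E11.5 in every library and overlapped with each other. Kif3a rose over the whole span (log2 change 1.09, SE 0.33, limma, adjusted p = 0.0271), a call lost without E11.5 library b or PN library b or c (log2 change 0.87 to 1.06, adjusted p = 0.0775 to 0.111). Kif3b and Kif3c, the alternative partners of Kif3a, ranged from 3.72 to 7.51 and from 2.72 to 6.17 FPKM over the 9 libraries, with no call by limma. The level of Kif3a was 5.48 to 6.75 times that of Kif3b at E11.5, 9.56 to 22.0 times at E15.5 and 7.36 to 13.7 times in PN.

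Kifc2, a C-terminal motor found in neurons, had the largest rise of the members tested on the log2(FPKM + 1) scale. It stood at 3.63, 0.614 and 1.95 FPKM at E11.5, at 5.79, 7.86 and 2.95 FPKM at E15.5 and at 34.9, 21.7 and 28.4 FPKM in PN. The PN libraries lay far above all others, and E11.5 and E15.5 overlapped. The log2 change was 2.22 from E15.5 to PN (SE 0.45, limma, adjusted p = 0.00520) and 3.36 over the whole span (SE 0.45, limma, adjusted p = 1.64e-04). That to E15.5 was 1.14 (adjusted p = 0.0722), and it passed without E11.5 library a or E15.5 library c (adjusted p = 0.0260 and 0.0484). Kif17, a dendritic motor of NMDA receptor vesicles, stood at 0.0181, 0.0129 and 0.199 FPKM at E11.5, at 2.46, 0.812 and 0.403 FPKM at E15.5 and at 2.18, 2.32 and 1.49 FPKM in PN. Both later stages lay above E11.5, and they overlapped with each other. The log2 change of Kif17 was 1.47 over the whole span (SE 0.36), and it passed the filter only through the later stages.

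The PN libraries held more transcripts of other cells, so the PN calls were also computed without PN library b, which had the highest sums. Against E15.5, 2 of 7 astrocyte markers tested were higher and 0 lower in PN, and of 8 microglia and blood markers 5 were higher and 2 lower. Against E11.5, 6 of 7 astrocyte markers and 6 of 8 microglia and blood markers were higher in PN and 0 lower. Without PN library b, the log2 change from E15.5 to PN was 1.20 for Klc1, 1.22 for Kif5c and 2.39 for Kifc2 (limma, adjusted p = 0.0205, 0.0271 and 0.0146). Over the whole span it was 3.53 for Kifc2 and 1.28 for Kif1a (limma, adjusted p = 8.01e-04 and 0.0434), and the call of Kif3a was lost (1.06, adjusted p = 0.0775). PN libraries a and c still had astrocyte sums of 1363 and 719 FPKM, where no E15.5 library exceeded 187.6 FPKM. Their microglia and blood sums were 103.6 and 122 FPKM, where no E15.5 library exceeded 63.3 FPKM. Leaving out library b was therefore no test of other cells, and their part in these changes was not tested.

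Of the members with other roles, Kif26a, Kif19a and Kif7 reached 1 FPKM in every E11.5 library and in no later one. Kif26a, an atypical kinesin that does not walk and in mouse enteric neurons restrains growth factor signalling, stood at 8.85, 11.1 and 7.42 FPKM at E11.5, at 0.286, 0.353 and 0.362 FPKM at E15.5 and at 0.245, 0.0165 and 0.0681 FPKM in PN. The E11.5 libraries lay far above all others, and PN lay below E15.5. The log2 change was -2.91 from E11.5 to E15.5 (SE 0.30) and -3.18 over the whole span. Kif19a, which shortens microtubules at the tips of cilia, stood at 1.61, 5.73 and 3.70 FPKM at E11.5, at 0, 0 and 0.00683 FPKM at E15.5 and at 0, 0.122 and 0.244 FPKM in PN. All E11.5 libraries were above all later ones (log2 change to E15.5 -2.12, SE 0.35, and to PN -1.96). Kif7, a ciliary regulator of Hedgehog signalling, stood at 1.29, 2.75 and 4.66 FPKM at E11.5, at 0.125, 0.499 and 0.0428 FPKM at E15.5 and at 0.0163, 0.241 and 0.355 FPKM in PN. Again E11.5 lay apart and the later stages overlapped (log2 change to E15.5 -1.60, SE 0.36, and to PN -1.61).

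Kif26b, the paralog of Kif26a, was lowest at E11.5. It stood at 0.00717, 0.200 and 0 FPKM at E11.5, at 0.409, 1.22 and 0.539 FPKM at E15.5 and at 2.07, 0.876 and 1.65 FPKM in PN. E11.5 lay below both later stages, which overlapped (log2 change over the whole span 1.22, SE 0.31). It passed the filter only through the later stages and dropped out where a mean of at least 1 FPKM was required. Kif2a, a microtubule depolymerase that trims axon branches, was named after its values were seen as the most abundant of this group. It had means of 10.8 ± 6.69, 16.5 ± 3.87 and 14.2 ± 3.36 FPKM (SD, n = 3 each) and no call by limma, though it was called higher at E15.5 than at E11.5 without E11.5 library c (log2 change 1.11, limma, adjusted p = 0.0345). The untested members of this group, Kif6, Kif24, Kif27 and Kif12, stayed at or below 1.45 FPKM.

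The mitotic members had low levels at every stage. Their summed level was 0.743, 13.2 and 9.71 FPKM at E11.5, then 11.2, 14.98 and 9.83 FPKM at E15.5, and 5.87, 5.40 and 8.04 FPKM in PN. The sum of the transport members was 394.6 to 454.9, 333.7 to 348.5 and 544.3 to 612.2 FPKM in that order of stages, far above it in every library. Kif22 and Kif20a, a motor of cytokinesis, were the 2 members tested, and neither was called in any comparison (limma, adjusted p = 0.207 to 0.957). Kif22 stood at 0.0233, 10.9 and 6.45 FPKM at E11.5, at 7.79, 8.97 and 4.61 FPKM at E15.5 and at 4.34, 4.197 and 2.79 FPKM in PN. E11.5 library a was near 0, and PN lay below E15.5 in every library, though that change did not pass (log2 change -0.74, SE 0.71, adjusted p = 0.489). A pseudogene of Kif22 is annotated, and Kifc1 and Kifc5b are near copies, so their values are uncertain. The other 12, among them the spindle motor Kif11 and the central spindle motor Kif23, did not exceed 2.02 FPKM. The sum was lower in PN than at E15.5 in every library. Kif22, whose values are uncertain, was its largest single part in each of those libraries, and no sum without Kif22 was made. Of the mitotic members 7 were listed at 0 in all 3 libraries at E11.5, 0 at E15.5 and 2 in PN.

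A longer list of other mitosis genes was taken from the same libraries, and no difference between it and the mitotic kinesins was tested. Of all genes tested, 28.9% were called between E11.5 and E15.5 and 20.2% between E15.5 and PN. Of 17 list genes tested, 10 were higher and 0 lower at E15.5 than at E11.5. In PN 0 were higher and 8 lower than at E15.5. Their summed level was 27.4 to 43.1 FPKM at E11.5, then 85.7 to 97.6 FPKM at E15.5, and 18.3 to 38.1 FPKM in PN. The cyclin Ccnb1 was at 0.185 ± 0.203, 5.22 ± 2.92 and 0.226 ± 0.317 FPKM in that order of stages (SD, n = 3 each). Racgap1, a partner of Kif23 in cytokinesis, stood at 4.08, 4.90 and 6.03 FPKM at E11.5, at 18.8, 13.4 and 14.9 FPKM at E15.5 and at 5.07, 6.52 and 3.51 FPKM in PN, with E15.5 above both other stages. Neural progenitor markers summed to 317.8 to 545.9, 969.2 to 1809 and 353.1 to 988.3 FPKM, with E15.5 above E11.5 in every library and overlapping with PN, and Fabp7 alone had means of 178, 1347 and 563 FPKM. Of 9 progenitor markers tested, 1 (Fabp7) was higher and 2 (Vim and Sox2) were lower at E15.5 than at E11.5, with a median log2 change of -0.54. What part dividing cells had in the E15.5 values was not tested.

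**Figure D4:**
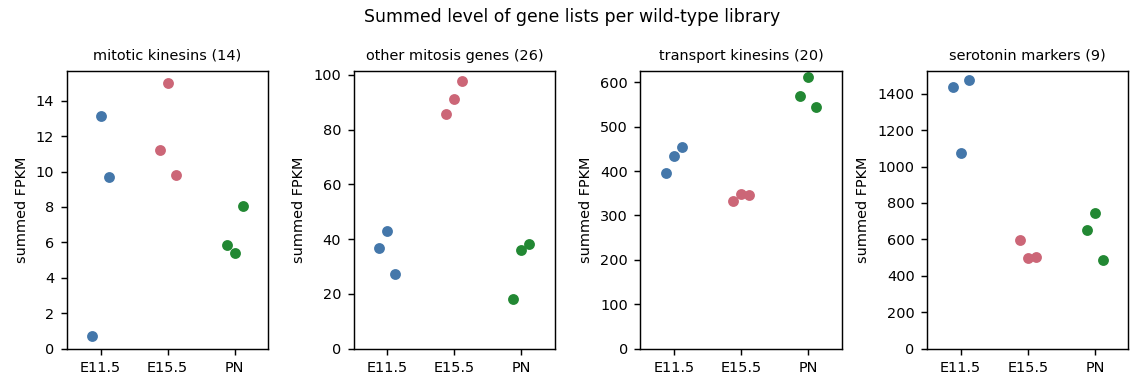
Summed FPKM of 4 gene lists in each wild-type library at E11.5, E15.5 and PN, with 1 point per library and the number of genes in parentheses. The transport kinesins and serotonin markers have far higher sums, and the transport sum is lowest at E15.5, whereas the mitotic kinesins never exceed 14.98 FPKM and other mitosis genes are highest at E15.5.

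Kinesins find their cargo through adaptors. Of 25 adaptors and cofactors, 4 were called higher and 2 lower at E15.5 than at E11.5, where 28.9% of all genes tested were called. In PN 7 were higher and 1 lower than at E15.5 (20.2% of all genes called), and 7 higher and 0 lower than at E11.5 (27.4%). Kifap3, the non-motor subunit of kinesin-2, stood at 41.3, 23.3 and 43.5 FPKM at E11.5, at 22.8, 24.8 and 38.4 FPKM at E15.5 and at 82.6, 66.9 and 93.6 FPKM in PN. PN lay above both earlier stages (log2 change from E15.5 to PN 1.49, SE 0.32, limma, adjusted p = 0.00727). Mapk8ip1, a scaffold that binds kinesin-1 light chains, stood at 10.7, 18.0 and 7.55 FPKM at E11.5, at 6.19, 2.32 and 1.55 FPKM at E15.5 and at 12.8, 11.8 and 11.1 FPKM in PN. Like Klc1, it was called lower at E15.5 than at E11.5 (log2 change -1.66, limma, adjusted p = 0.0133) and higher in PN than at E15.5 (1.71, adjusted p = 0.0162). Fez1, another kinesin-1 adaptor, had the opposite course, with 277 ± 111, 708 ± 72.3 and 285 ± 79.9 FPKM (SD, n = 3 each) and log2 changes of 1.42 and -1.35 (limma, adjusted p = 0.00498 and 0.00968). Clstn3, a calsyntenin, rose to E15.5 (2.30, adjusted p = 0.00175), and Hap1, which links motors to vesicles, rose to PN (2.52, adjusted p = 7.95e-04).

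A list of 23 genes covered dynein, the motor of the opposite direction, and dynactin with further partners. Of these, 5 were called higher and 5 lower from E11.5 to E15.5. From E15.5 to PN 7 were higher and 1 lower, and over the whole span 5 were higher and 1 lower. Of all genes tested, 28.9%, 20.2% and 27.4% were called in the first interval, the second and the whole span. Dctn1, the large dynactin subunit that ties dynein to cargo, stood at 45.0, 55.8 and 49.2 FPKM at E11.5, at 15.1, 17.5 and 8.48 FPKM at E15.5 and at 51.7, 37.5 and 35.5 FPKM in PN. E15.5 lay below both other stages, and Dctn1 was called lower at E15.5 than at E11.5 (log2 change -1.85, limma, adjusted p = 0.00117) and higher in PN than at E15.5 (1.57, adjusted p = 0.00489). The dynein heavy chain gene Dync1h1 fell to E15.5 (-1.26, adjusted p = 0.0101). The intermediate chain gene Dync1i1 rose in both intervals (2.16 and 1.90, limma, adjusted p = 0.00228 and 0.00701), while its relative Dync1i2 rose and then fell (1.74 and -1.83, limma, adjusted p = 0.00405 and 0.00465). Of the tracks, 10 tubulin and microtubule-associated genes of a list of 19 were in the table, with 4, 2 and 6 higher and 0 lower in the first interval, the second and the whole span. Mapt, which encodes the axonal protein tau, had 57.1 ± 19.1, 175 ± 10.2 and 452 ± 5.53 FPKM (SD, n = 3 each), and Tuba4a 2.75 ± 0.183, 1.34 ± 0.575 and 33.4 ± 3.05 FPKM.

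The knockout tables hold group values and q-values from the authors and no library values, so no test of the spread could be made. As a check of the labels, Fev in the authors' deposited tables stood at 0.422 FPKM in Pet-1-/- and 31.1 FPKM in wild-type Clontech libraries, and at 0.308 FPKM in Pet-1-/- and 34.9 FPKM in wild-type NuGEN libraries. A member was called where q was below 0.05, the fold change 1.5 or more and the level 1 FPKM or more in either group. With Clontech, 0 of 23 members tested at that level were called, where 2.82% of all genes were. If the E15.5 columns above are the Clontech libraries, as taken here, the same wild-type libraries enter both. By the authors' deposited table, 4 members had an unadjusted p below 0.05 at any fold (Kif1a, Kif22, Kif26b and Kif5c), as had 16.9% of all genes. With NuGEN, 1 of 21 members was called, Klc1, which was lower in Pet-1-/-, where 12.7% of all genes were called, 902 higher and 502 lower. There, 5 members had an unadjusted p below 0.05 at any fold (Kif13a, Kif1a, Kif5a, Kifc2 and Klc1), as had 28.3% of all genes.

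The authors' deposited NuGEN table gives Klc1 100 FPKM in Pet-1-/- and 161 FPKM in wild-type libraries (log2 fold change -0.68, q = 0.0333). The authors' deposited Clontech table gives Klc1 84.3 FPKM in Pet-1-/- and 81.1 FPKM in wild-type libraries (log2 fold change 0.06, q = 0.932). The difference between the kits was not tested, since no library values are in these tables. Kif1a was higher in Pet-1-/- in both of the authors' deposited tables, at 55.8 FPKM in Pet-1-/- and 41.6 FPKM in wild type with Clontech (log2 fold change 0.42, q = 0.145) and at 47.6 FPKM in Pet-1-/- and 32.4 FPKM in wild type with NuGEN (0.55, q = 0.106), with no call. Kif5a, by the authors' deposited NuGEN table, stood at 23.8 FPKM in Pet-1-/- and 34.3 FPKM in wild type (-0.53, q = 0.113), and by the Clontech table at 19.7 FPKM in Pet-1-/- and 18.2 FPKM in wild type (0.11, q = 0.835). Kif5c had 21.4 FPKM in Pet-1-/- and 16.3 FPKM in wild type in the authors' deposited Clontech table (0.39, q = 0.245), and 24.3 FPKM in Pet-1-/- and 28.6 FPKM in wild type with NuGEN (-0.24, q = 0.534).

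Across kits, 13 of the 20 members with at least 1 FPKM in a group and a test in both tables had a fold change of the same sign (65.0%), as had 57.0% of 10496 genes. Higher in Pet-1-/- in both were 9, among them Kif1a, Kif3a, Kifc2 and Kif21b, and lower in both were 4 (Kif21a, Kif5b, Kif9 and Klc4). The median log2 fold change of the members, by the authors' deposited tables, was 0.11 with Clontech and 0.00 with NuGEN, against -0.02 and 0.09 over all genes. The mitotic Kif22 had opposite signs, with 2.87 FPKM in Pet-1-/- and 6.29 FPKM in wild type in the authors' deposited Clontech table (-1.13, q = 0.115) and 1.66 FPKM in Pet-1-/- and 1.02 FPKM in wild type with NuGEN (0.71, q = 0.317).

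**Figure D5:**
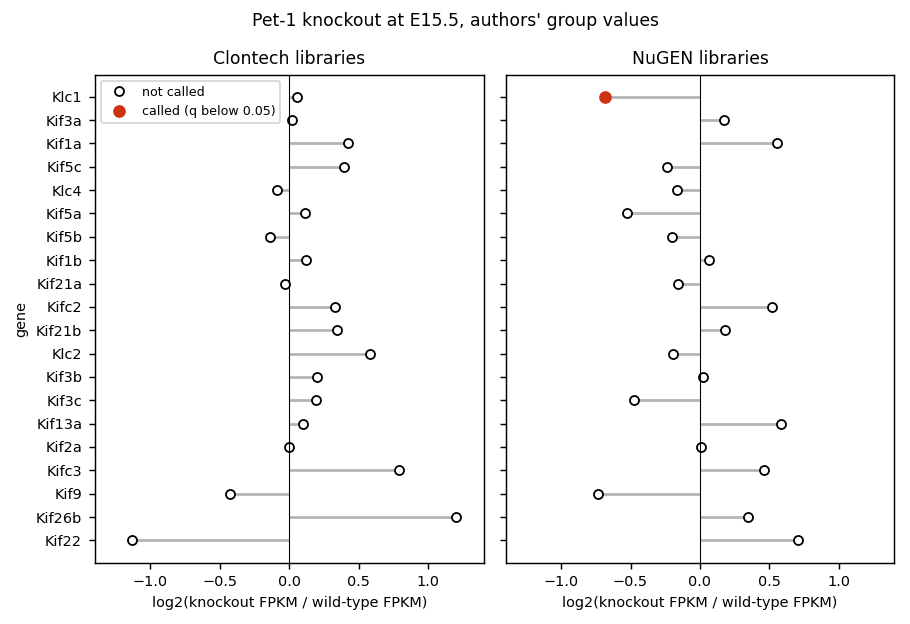
Log2 ratio of group FPKM, Pet-1 knockout over wild type, for the 20 kinesin genes with at least 1 FPKM in a group and a test in both of the authors' deposited tables, with the Clontech libraries left and the NuGEN libraries right. The filled point, Klc1 with NuGEN at -0.68, is the sole one called, and the point farthest from 0 is Kif26b with Clontech at 1.20.

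Binding of Myc-tagged Pet-1 was read from the authors' list of 4934 peaks, called from the 1 immunoprecipitation, with scores that are the authors' own (highest 3133, median 88.3). A gene counted as having a peak where its RefSeq span, with 5000 bases upstream where the strand was known, held one. This was so for 16 of 45 members matched to RefSeq (35.6%), where it was so for 22.0% of 20006 genes. A longer span has more room for a peak, and gene length was not adjusted for. Within 5000 bases of the gene start, a peak was found for 12 of 36 members (33.3%) and 22.0% of 15164 genes. With 10000 bases on both sides of the span, 20 members (44.4%) and 28.3% of genes had a peak. By the first rule with only the peaks scoring above the median, it was so for 10 members (22.2%) and 12.1% of genes. For 9 members without a promoter entry the strand was not known, and their span alone was searched. The 16 were the transport members Kif1a, Kif3b, Kif5a, Kif5c, Kif13a, Kif21a and Kif21b, the other-role members Kif2a, Kif9, Kif19a, Kif24 and Kif26a, and the mitotic members Kif14, Kif15, Kif22 and Kifc5b. The Kif22 peak lay at the far end of its gene, with its centre 14749 bases downstream of the start and 11 bases from the nearest gene end. The light chain Klc1 and the motors Kif3a, Kif5b, Kifc2 and Kif17 had no peak by this rule. Kif5a had the highest score of the members (304, above 92.4% of peaks), at chr10:127265898-127266925, and the Kif21a peak came next (262), at chr15:91048759-91050529. The Kif5c peak, at chr2:49619079-49619816, had a score of 55.7, below the median.

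The longer ETS core was held upstream by 10 members, and 9 had an upstream window under a peak. The 5 upstream sequences below were picked from these, and the others are not shown. They are from Kif5c, Kif3b, Kif2a and Kifc5b, under a peak, and from Kif22, with the longer core and no peak over it. They come from RefSeq, build GRCm38.p6, and are the bases among the 250 before an annotated start that lie outside the gene's span, read 5′ to 3′ on the gene's strand, with the ETS core GGAA or its reverse complement TTCC in capitals. They stand at chr2:49619036-49619285 (+) for Kif5c, chr2:153291166-153291394 (+) for Kif3b, chr13:107022356-107022605 (-) for Kif2a, chr17:26916841-26917090 (+) for Kifc5b and chr7:127042468-127042670 (-) for Kif22.
Kif5c: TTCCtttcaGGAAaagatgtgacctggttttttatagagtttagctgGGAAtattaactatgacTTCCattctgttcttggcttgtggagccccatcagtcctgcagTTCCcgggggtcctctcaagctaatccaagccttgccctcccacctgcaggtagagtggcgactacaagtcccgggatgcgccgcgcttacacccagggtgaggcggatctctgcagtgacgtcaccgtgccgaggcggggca
Kif3b: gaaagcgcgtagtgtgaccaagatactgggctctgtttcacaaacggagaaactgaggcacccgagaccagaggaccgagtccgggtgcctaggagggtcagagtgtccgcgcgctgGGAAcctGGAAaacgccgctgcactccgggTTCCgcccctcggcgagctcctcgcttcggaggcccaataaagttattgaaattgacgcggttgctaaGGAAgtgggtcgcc
Kif2a: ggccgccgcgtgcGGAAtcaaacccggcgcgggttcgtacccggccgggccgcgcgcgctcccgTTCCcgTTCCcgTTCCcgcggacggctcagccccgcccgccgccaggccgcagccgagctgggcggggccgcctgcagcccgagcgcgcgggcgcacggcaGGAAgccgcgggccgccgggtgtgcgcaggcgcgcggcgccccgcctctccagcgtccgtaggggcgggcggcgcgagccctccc
Kifc5b: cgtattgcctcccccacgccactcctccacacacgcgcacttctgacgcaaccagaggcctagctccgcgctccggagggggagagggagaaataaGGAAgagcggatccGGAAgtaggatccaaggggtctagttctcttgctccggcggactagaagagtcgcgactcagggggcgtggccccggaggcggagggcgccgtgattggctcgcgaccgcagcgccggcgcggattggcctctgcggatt
Kif22: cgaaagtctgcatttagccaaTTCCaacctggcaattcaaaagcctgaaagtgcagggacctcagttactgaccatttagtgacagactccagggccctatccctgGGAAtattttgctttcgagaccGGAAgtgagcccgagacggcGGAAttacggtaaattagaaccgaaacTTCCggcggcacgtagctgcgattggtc

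The Kif5c, Kif3b, Kif2a, Kifc5b and Kif22 stretches held 5, 4, 5, 2 and 5 matches to the short core, and 207, 229, 250, 250 and 0 of their bases lay under a peak. The short core, GGAA or TTCC on either strand, was found in 93.4% of all 32851 windows of 250 bases upstream of a start. The longer core CCGGAA or TTCCGG, which contains the short one, was found in 3952 of all windows, in 34.5% of the windows under a peak and in 8.96% of the others. The Kifc5b stretch held it once and the Kif22 stretch 2 times, and those of Kif5c, Kif3b and Kif2a held none. Of the 40 windows of 36 members, 11 lay under a peak, as did 3953 of all 32851 windows. The longer core was held by 10 members, and 9 had a window under a peak, with Kif9 and Kifc5b in both sets.

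Of the 11 members called in a stage comparison, Kif1a, Kif5c, Kif19a and Kif26a had a peak, where 22.0% of 20006 genes had one. Kif19a and Kif26a passed the filter only through E11.5. The Kif19a peak scored 50.5, where the lowest score of the list was 50, and its centre lay 4691 bases from the nearest gene end. Klc1, the 1 member called in the knockout, had no peak.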

How the data were processed

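Messenger RNA of sorted serotonin neurons was sequenced at 3 stages and in Pet-1-/- and wild-type pairs, and Pet-1 binding by 1 ChIP. Per the submitters' processing notes, TopHat2, Cufflinks, BWA (no versions given) and MACS 1.4.2 were used, with builds mm9 and mm10 in unstated roles. The deposited values are FPKM per library for the stages, group FPKM, log2 fold changes, p-values and q-values from the authors for each comparison, and peak scores from the authors. The depth per library is unknown, and 3 columns matching no sample were not used. Stage changes were computed with limma 3.58.1 (R 4.3.3) on log2(FPKM + 1) with a mean-variance trend, in 1 fit with 6 residual degrees of freedom, over 11741 genes at 1 FPKM or more in at least 3 libraries (14 genes with a failed estimate were left out), with Benjamini-Hochberg adjustment. Fold changes on this scale understate changes of low genes. Knockout calls use the authors' q. Members called in any comparison or with a mean of at least 20 FPKM are described by library, and of other lists up to 4 called genes per comparison with the largest change. Fev, Kif2a, Kif1b, Kif22, Racgap1, Dync1h1 and Kif26b with Clontech, where given, were chosen for their role or after their values were seen. The members and lists were chosen with earlier results of these data known. Alternatives were another pseudocount, filter and scaling, the authors' q, and leaving out each library.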

Additional observations from a re-analysis of the deposited data

Results flagged for a closer look

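For 5 members the change from E15.5 to PN differed from the change from E11.5 to E15.5, by a limma contrast of both intervals, each with 3 libraries per stage. The later minus the earlier log2 change was 2.43 for Kif5c (SE 0.45, limma, adjusted p = 0.00322), 2.08 for Klc1 (SE 0.42, adjusted p = 0.00506) and 2.05 for Kif5b (SE 0.65, adjusted p = 0.0398). The Kif5b difference was lost in 7 of 9 leave-one-out fits (1.67 to 2.20, adjusted p = 0.0512 to 0.170) and without the filter (adjusted p = 0.0807). The difference was 2.64 for Kif26a (SE 0.52) and 2.28 for Kif19a (SE 0.61), given with no p since both passed the filter only through E11.5, and that of Kif19a was no longer called without any 1 E15.5 library. No group had the 4 or more libraries that a check for single outlying libraries needs.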

How the results depend on the processing

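No paired analysis was possible because the columns of the stage table carry no replicate numbers. With the authors' deposited q, 12 members were called from E11.5 to E15.5 (3 higher, 9 lower, 4 of them among the 6 called here) and 6 from E15.5 to PN (5 higher, 1 lower, including the 3 called here), and the cause was not tested. Leaving out 1 library at a time gave 4 to 8 calls from E11.5 to E15.5, 3 in every case from E15.5 to PN, 7 to 9 over the whole span and 3 to 5 for the difference of intervals. With an unadjusted p below 0.05 and 1.5-fold, 2 members were called in the Clontech and 2 in the NuGEN knockout table, and 0 in the NuGEN table at a q below 0.01. With peaks scoring above the median alone, 10 members had one. Of 307 values of called members under alternatives, 285 stayed past the threshold and 22 did not, and none changed sign. Many of the 307 belonged to Kif26a, Kif19a, Kif7, Kif17 and Kif26b, for which a difference from E11.5 was built into the filter. The share that stayed is therefore no measure of how firm the calls of the other members are. Among the 22, the difference of intervals of Kif26a was lost with a pseudocount of 0.1 FPKM. Kif3a over the whole span was lost without the filter (adjusted p = 0.0546). Depth is unknown, so the precision of low values cannot be given.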
